A study of Mus musculus with 3 samples.

Results

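Mitochondrial complex I (NADH:ubiquinone oxidoreductase) takes electrons from NADH, passes them through a chain of iron-sulfur clusters to ubiquinone and pumps protons across the inner membrane. Its core subunits carry the redox centres and the proton channels. Those of the membrane channels are encoded by mitochondrial DNA, the others by nuclear genes, and many further accessory subunits of nuclear origin are needed for assembly and stability. Salivary striated ducts are known for their many mitochondria, which line the basal infoldings where ions are reabsorbed from saliva. The genes described here are those of the nuclear-encoded subunits: all genes in the deposited tables whose symbol begins with Ndufa, Ndufb, Ndufc, Ndufs or Ndufv, without the assembly factors named Ndufaf and without symbols that end in os or in ps and a digit. Ndufb1-ps, whose ending has no digit, stayed in, and 38 of the members are annotated as protein coding. They number 39 of 32285 genes. By role they comprise 7 nuclear core subunits, 9 accessory subunits of the matrix arm, 9 of the membrane arm close to it, 11 of the far membrane arm, the acyl carrier subunit Ndufab1, and Ndufa4 with its paralog Ndufa4l2, which bear the symbol although Ndufa4 is now counted with complex IV.

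The data are single-nucleus RNA counts from submandibular glands of mice labelled WT, with 1 library for each of 3 groups: non-irradiated without treatment, irradiated and given saline, and irradiated and given pilocarpine, a muscarinic agonist that stimulates salivation. The titles place the irradiated glands at 90 days after irradiation, with pilocarpine from day 30 to day 90, and the protocol text places both at 93 days. Nuclei came from frozen glands and were sorted on DAPI. Strain, age, radiation dose and the number of animals behind a library are not stated in the labels used here. With 1 library a group there is no spread between replicates, so no test was made between groups. The 95% intervals below cover the counting of UMIs (unique molecular identifiers, 1 for each captured RNA molecule) and nothing else, and a difference outside them is a difference between these libraries.

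After a minimum of 500 genes and a maximum of 5% mitochondrial UMIs, 10635, 8622 and 8376 nuclei remained in the non-irradiated, saline and pilocarpine libraries, with 25566617, 29177212 and 33358056 UMIs and a median of 1536, 2113 and 2048 per nucleus. Barcodes shared between a pair of libraries numbered 24 to 26. The share of UMIs from ribosomal protein genes, a proxy for RNA of the cytoplasm, was 0.258%, 0.283% and 0.310%. Classes of nuclei were rebuilt from marker genes. Acinar-like nuclei numbered 6408, 3517 and 4671, and granular or striated duct-like nuclei 658, 1642 and 353. The acinar-like nuclei lay in different clusters in different libraries: clusters 0 and 5 held 3655 and 1770 of them in the non-irradiated library, against 171 and 74 in the saline library, while cluster 1 held 1717 in the saline library and 102 in the non-irradiated one. Clusters 12 and 16 carried acinar markers but were led by genes of another class and stayed out of the acinar-like class. Cluster 12 made up 5.98%, 0.209% and 0.406% of the nuclei of the 3 libraries and cluster 16 made up 1.251%, 1.46% and 1.74%.

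Among the 6 classes with 100 or more nuclei in every library, complex I transcripts were most abundant in granular or striated duct-like nuclei. The level used is the summed UMI count of all 39 genes divided by all UMIs of a class and put on the usual CPM scale. Duct-like nuclei reached 1455 CPM without irradiation, 1344 with irradiation and saline, and 1521 with irradiation and pilocarpine. Ionocyte-like nuclei, a rare duct cell rich in proton pumps, came next with 1103, 1158 and 1213 CPM. The remaining classes lay close together. Acinar-like nuclei had 883, 882 and 968 CPM, endothelial-like nuclei 954, 962 and 939, fibroblast-like nuclei 867, 933 and 942, and myoepithelial-like nuclei 792, 905 and 940. Of these 6, duct-like was first and ionocyte-like second in all 3 libraries, while the ranges over libraries of the other 4 classes overlapped. Of the smaller classes, lymphatic endothelial-like nuclei had 712, 1497 and 1360 CPM, from only 9, 15 and 8 nuclei. As means over the 3 libraries (SD, n = 3 libraries of unlike treatment), the sum was 1440 ± 89.5 CPM in duct-like, 1158 ± 54.9 in ionocyte-like and 911 ± 49.1 in acinar-like nuclei.

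**Figure D1:**
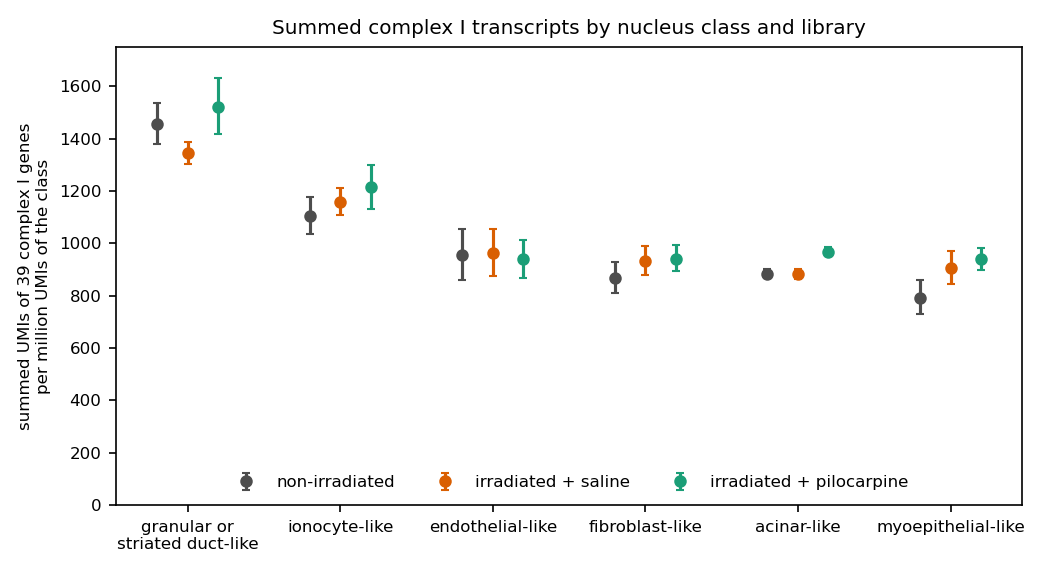
Summed level of the 39 complex I genes (vertical axis, CPM) in the 6 classes that held 100 nuclei or more per library; points are single libraries and bars are exact 95% Poisson intervals. The duct-like points, at 1344 to 1521 CPM, lie above every other class, and the ionocyte-like points follow at 1103 to 1213 CPM.

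The duct-like level was 1.65-fold the acinar-like level in the non-irradiated library (counting interval 1.55 to 1.75), 1.52-fold in the saline library (1.47 to 1.58) and 1.57-fold in the pilocarpine library (1.46 to 1.69). Ionocyte-like over acinar-like was 1.249, 1.313 and 1.254-fold. Free RNA from other cells is present in every droplet, and when an estimate of it was subtracted the duct-like excess was 1.66 to 2.15-fold. The estimate did not come from empty droplets. It compared products of the other class in these nuclei with their level in all nuclei of the library. Splitting the clusters more finely, or clustering each library alone, gave an excess of 1.252 to 1.589-fold. Both settings changed which nuclei were in the class, and the finer one left 125, 758 and 48 duct-like nuclei in the 3 libraries. No alternative brought the duct-like level to that of acinar-like nuclei in any library. Beside it, the ribosomal protein share was 1.03, 0.809 and 1.18-fold duct-like over acinar-like, and the share of UMIs from mitochondrial DNA was higher in duct-like nuclei, 0.0446%, 0.0500% and 0.107% against 0.0264%, 0.0329% and 0.0376%, or 1.69, 1.52 and 2.85-fold. The 7 mitochondrially encoded complex I genes alone were 1.89, 1.58 and 2.86-fold. The part of such RNA from outside the nucleus in the excess was not tested.

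The excess was spread over many subunits. Of 38 members with at least 100 UMIs in both classes together, 30 were higher in duct-like than in acinar-like nuclei in all 3 libraries, against 33.5% of all genes counted by the same rule. At least 1.5-fold higher in each of the 3 libraries were 11 of the 38, where 14.6% of all 12038 genes were. None was 1.5-fold lower in all 3, where 15.2% of all genes were. The median log2 ratio was 0.60 for the members and -0.03 for all genes. This minimum was applied first to the duct-like class alone, which left out members with few duct-like UMIs and was changed once its result had been seen. With it, 8 of 22 members passed, against a background of 20.2%.

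The 11 came from several portions of the enzyme. Ndufs1, the largest core subunit and carrier of several iron-sulfur clusters, had 159, 124 and 134 CPM in duct-like nuclei against 80.5, 67.1 and 83.9 in acinar-like nuclei of the non-irradiated, saline and pilocarpine libraries. Ndufv2, an iron-sulfur subunit of the NADH-oxidizing tip, had 73.2, 61.3 and 70.8 against 37.7, 35.7 and 38.1 CPM. Ndufs3, a core subunit of the quinone-reducing portion, had 96.5, 82.0 and 88.4 against 57.9, 46.3 and 56.6 CPM. All 3 core subunits were higher in duct-like nuclei by 1.56-fold or more in every library. Ndufa10, an accessory subunit with a nucleoside kinase-like fold, differed least between libraries in this ratio, with 1.99, 1.81 and 1.85-fold. The highest mean ratio was that of Ndufa8, a cysteine-rich membrane-arm subunit, at 3.69, 2.08 and 2.51-fold, from only 76 duct-like UMIs in all libraries together. The other 6 were Ndufs4, Ndufa5, Ndufa12, Ndufb4, Ndufc2 and Ndufab1. At the other end stood Ndufs5 with 1.32, 0.951 and 0.643-fold, Ndufb6 and Ndufb1-ps, whose mean log2 ratios were -0.10, -0.15 and -0.11.

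**Figure D2:**
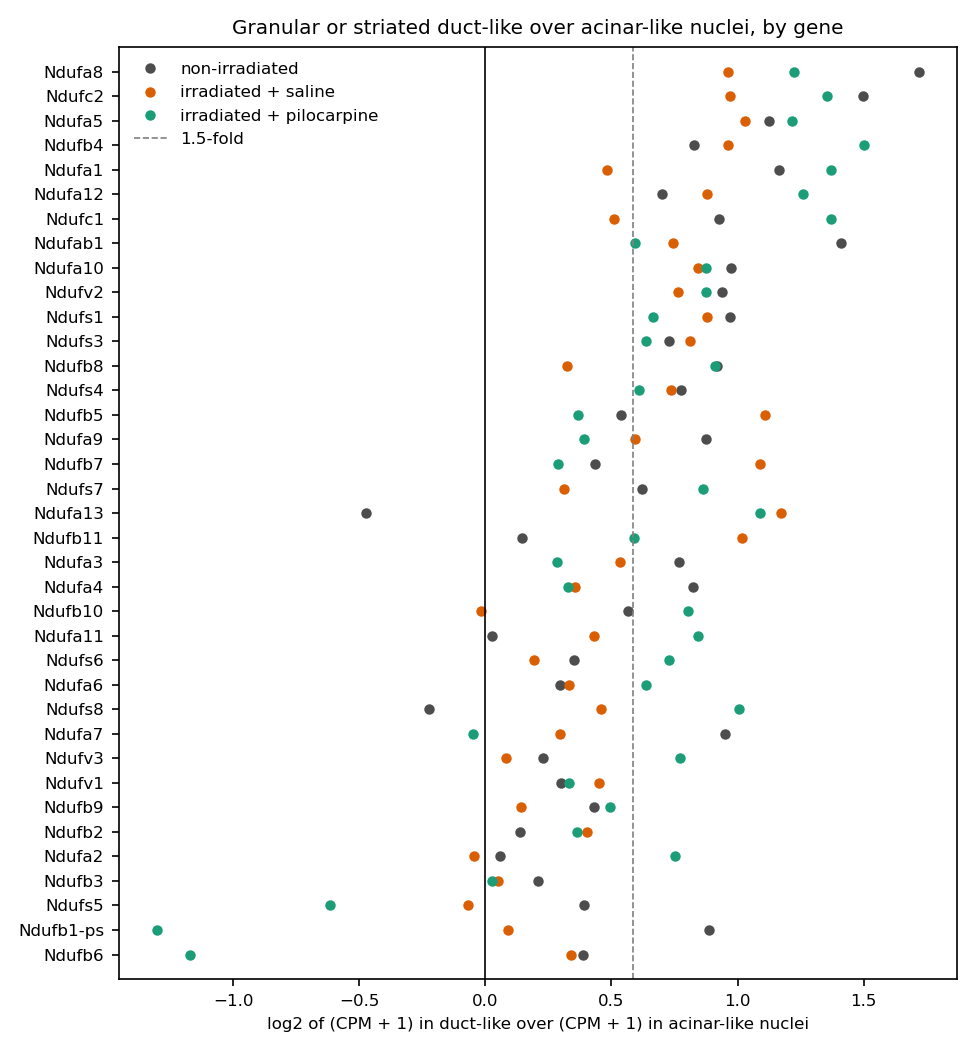
Log2 ratio of (CPM + 1) in granular or striated duct-like over acinar-like nuclei (horizontal axis) by gene (vertical axis), 1 point for each library, with a dashed line at 1.5-fold. In most genes all 3 points lie right of 0, and in 11 all 3 lie beyond the dashed line.

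The other respiratory complexes were higher in duct-like nuclei too. Duct-like over acinar-like, the summed CPM of 4 complex II genes was 1.88, 1.83 and 1.70-fold, that of 9 complex III genes 1.93, 1.71 and 2.05-fold, that of 10 complex IV genes 1.94, 2.03 and 2.18-fold and that of 14 ATP synthase genes 1.61, 1.62 and 1.65-fold. Within complex I the far membrane arm had the smallest excess in each library, at 1.42, 1.35 and 1.33-fold. The assembly factors of complex I, 17 genes that build the enzyme but do not stay in it, did not share the excess, with 1.13, 0.961 and 0.956-fold, and neither did the 11 genes of ubiquinone synthesis, with 0.801, 0.809 and 0.845-fold.

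In ionocyte-like nuclei the mean log2 ratio to acinar-like nuclei was below that of duct-like nuclei for 30 of 38 members, and above it for 8, among them Ndufa13, Ndufv1 and Ndufs5. Of 38 members counted with the minimum on both classes, 22 were higher than in acinar-like nuclei in all 3 libraries, against 31.5% of all genes, and none was 1.5-fold higher in all 3, where 9.1% of all genes were (11.7% with the minimum on ionocyte-like UMIs alone, where 0 of 11 members passed). The median log2 ratio was 0.31 for the members and 0.02 for all genes.

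Among the 6 classes, Ndufa4l2 varied most, by 3.34 on the log2 (CPM + 1) scale of class means. It is a paralog of Ndufa4 known as a hypoxia-inducible gene. It had 9.3, 11.2 and 7.4 CPM in fibroblast-like nuclei, from 9, 13 and 11 UMIs, and at most 2.53 CPM in acinar-like, duct-like, endothelial-like, ionocyte-like and myoepithelial-like nuclei, with 0 UMIs in ionocyte-like nuclei of all 3 libraries. The next widest ranges, 1.34 to 1.61, belonged to Ndufb8, Ndufb5, Ndufa9, Ndufa8 and Ndufa12, each highest in duct-like nuclei. Ndufa4 itself, at 15.2, 18.8 and 20.1 CPM in acinar-like nuclei, was not fibroblast-biased: fibroblast-like nuclei had 16.5, 17.2 and 20.7 CPM.

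In acinar-like nuclei the summed complex I level did not differ between the saline and the non-irradiated library beyond counting error: 882 against 883 CPM, a ratio of 0.999 (0.971 to 1.03). It was higher in the pilocarpine library than in the saline library, 968 against 882 CPM, a ratio of 1.10 (1.07 to 1.13), and higher than in the non-irradiated library by the same 1.10-fold (1.07 to 1.13). The summed ribosomal protein genes moved as well, by 1.16, 1.06 and 1.23-fold in the same 3 comparisons, and their part in the result was not tested. Because libraries filled different acinar clusters, the ratio was also taken within each. Pilocarpine over saline was above 1 in 6 of 6 acinar clusters, from 1.03 to 1.13, while the ribosomal protein ratio was above 1 in 2 of them. For saline over non-irradiated and for pilocarpine over non-irradiated the ribosomal protein ratio was above 1 in 6 of 6. The counting interval of the complex I ratio for pilocarpine over saline lay above 1 in clusters 1, 3 and 4. It took in 1 in the other acinar clusters. The complex I ratio of saline over non-irradiated was above 1 in 5 of 6, from 0.997 to 1.14. Cluster 3, whose leading genes included the haemoglobin gene Hbb-bs, mt-Co1, mt-Co2, mt-Co3, Rplp0 and Rplp1, held 218, 747 and 1584 acinar-like nuclei and had 943, 964 and 1039 CPM. Without it the 3 acinar-like ratios were 0.990, 1.09 and 1.08, an alternative chosen after seeing the data. Over all nuclei of a library, whose mix of classes differs, the 3 ratios were 1.06, 0.989 and 1.05.

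**Figure D3:**
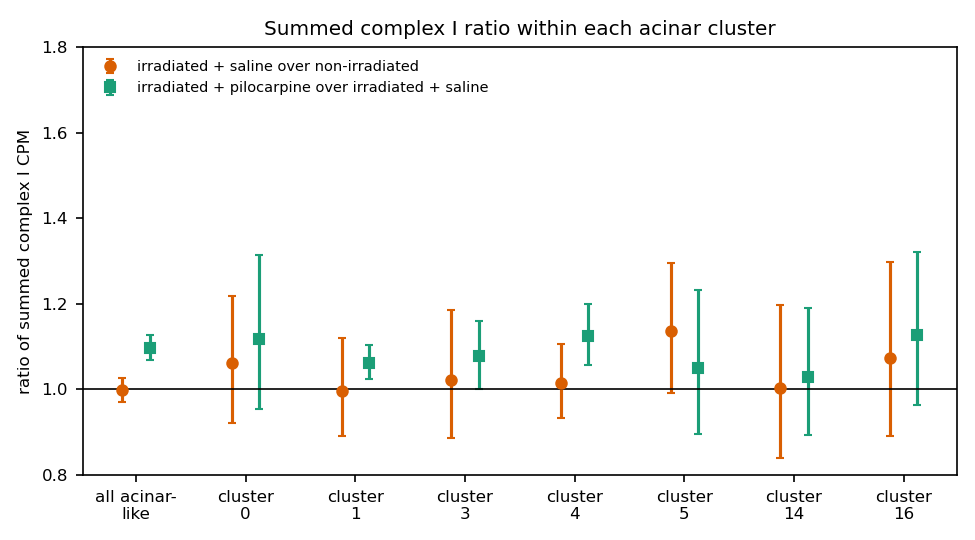
Ratio of summed complex I CPM (vertical axis) for saline over non-irradiated (circles) and pilocarpine over saline (squares), in all acinar-like nuclei, in each of the 6 acinar clusters and in cluster 16, which carries acinar markers and cycling genes; bars are exact 95% counting intervals. The squares of the 6 clusters lie between 1.03 and 1.13.

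Few single members differed by 1.5-fold between libraries in acinar-like nuclei. Few of all genes did either, so these counts do not set the members apart. For saline over non-irradiated, 37 members had at least 100 UMIs. Of these 1 was 1.5-fold above, Ndufc2, and 0 were below, where 4.11% and 3.77% of all genes were. The median log2 ratio was 0.06 for the members and -0.04 for all genes, with 22 members higher and 15 lower, where 43.9% of all genes were higher. Ndufc2 lay at the threshold: its log2 ratio of 0.59 ran from 0.28 to 0.83 over the alternatives, several of which put no member past 1.5-fold. For pilocarpine over saline, 2 of 38 were above, Ndufb11 and Ndufa2, and 0 below, where 1.15% and 0.895% of all genes were, and 28 were higher and 10 lower, where 62.1% of all genes were higher, with a median of 0.09 against 0.05 for all genes. The log2 ratio of Ndufa2, 0.61, ran from 0.38 to 0.80 over the alternatives, and that of Ndufb11, 0.82, from 0.77 to 1.47. For pilocarpine over non-irradiated, 1 of 37 was above, Ndufc2 again, and 0 below, where 5.09% and 2.43% of all genes were, and 31 were higher and 6 lower, where 52.7% of all genes were higher, with a median of 0.13 against 0.02 for all genes. These last comparisons share libraries with the first, so their counts are not independent.

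In acinar-like nuclei the summed core subunits were lower in the saline than in the non-irradiated library, while the summed accessory groups were not. The difference between the groups was not tested. The 3 core subunits of the NADH-oxidizing portion summed to 143, 126 and 148 CPM in the non-irradiated, saline and pilocarpine libraries. That is 0.878-fold for saline over non-irradiated (0.817 to 0.943) and 1.18-fold for pilocarpine over saline (1.10 to 1.27). The 4 core subunits of the quinone-reducing portion summed to 111, 97.9 and 108 CPM, ratios of 0.884 (0.815 to 0.959) and 1.11 (1.02 to 1.20). The saline library was the low one of the 3 in both groups. It also stood apart in the estimated share of free RNA in acinar-like nuclei, which was 18.2%, against 41.4% in the non-irradiated and 43.4% in the pilocarpine library. That estimate is the median, over 16 duct products, of CPM in acinar-like nuclei over CPM in all nuclei of the library. It falls as duct-like nuclei fill more of a library, and they made up 6.19%, 19.0% and 4.21%. A low value therefore need not mean less free RNA. The accessory groups were not lower in the saline library: the matrix-arm group stood at 269, 281 and 293 CPM, the near membrane arm at 138, 146 and 161 and the far membrane arm at 187, 190 and 214. Each of these 3 groups was lowest in the non-irradiated and highest in the pilocarpine library.

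The lower core sums came largely from Ndufs1 and Ndufs3, the core subunits with the highest CPM. Ndufs1 stood at 80.5, 67.1 and 83.9 CPM, a saline over non-irradiated ratio of 0.834 (0.756 to 0.919) and a pilocarpine over saline ratio of 1.251 (1.14 to 1.38). Ndufs3 stood at 57.9, 46.3 and 56.6 CPM, ratios of 0.799 (0.711 to 0.898) and 1.22 (1.09 to 1.37). Both were low in the saline library alone. With the estimated free RNA subtracted, the log2 ratio of saline over non-irradiated was -0.19 for Ndufs1 and -0.29 for Ndufs3, against -0.26 and -0.32 without. Ndufv1, which binds NADH and the flavin, stood at 25.04, 23.0 and 26.4 CPM and Ndufv2 at 37.7, 35.7 and 38.1, ratios within counting error of 1. Ndufs7 and Ndufs8, which hold the last iron-sulfur clusters before ubiquinone, were not low in the saline library, with 22.7, 23.8 and 24.4 CPM and 6.6, 8.0 and 8.3 CPM. Ndufs1 lies on chromosome 1 (GRCm38 63143596 to 63176833, minus strand), and 44.2% of its span is overlapped by the non-coding Ino80dos on the other strand. The strand setting of the counting is not stated, so reads of the pair could not be told apart.

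Ndufs3 is shown with its promoter, the 300 bases around the RefSeq start (GRCm38.p6, chr2:90904672-90904971, minus strand), because it was the core gene lowest in the saline library relative to the non-irradiated one. Capitals mark the ETS core CCGGAAG, or its other strand CTTCCGG, the letters that GABP (also called NRF-2), a known activator of respiratory genes, recognises.
Ndufs3: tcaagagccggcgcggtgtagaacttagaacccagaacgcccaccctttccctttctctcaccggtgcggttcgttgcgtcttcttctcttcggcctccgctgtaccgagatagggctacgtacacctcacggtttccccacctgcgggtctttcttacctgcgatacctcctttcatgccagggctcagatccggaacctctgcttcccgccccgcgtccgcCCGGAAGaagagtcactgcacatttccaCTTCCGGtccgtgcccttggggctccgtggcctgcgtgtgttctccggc
The window holds the ETS core 2 times. Among the 33 members with a RefSeq promoter entry, 4 held it (12.1%), where 9.12% of 27025 genes did.

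Accessory subunits gave the largest single differences. Ndufa6, a matrix-arm subunit of the LYR protein family, stood at 22.4, 28.9 and 33.8 CPM, a ratio of 1.29 (1.09 to 1.52) for saline over non-irradiated and 1.17 (1.01 to 1.36) for pilocarpine over saline. Ndufc2, a membrane-arm subunit, stood at 4.9, 7.8 and 10.2 CPM from 57, 85 and 127 UMIs, ratios of 1.61 (1.13 to 2.29) and 1.30 (0.982 to 1.74). Both were lowest in the non-irradiated and highest in the pilocarpine library. Ndufb11, an X-linked subunit of the far membrane arm, stood at 7.9, 6.0 and 11.4 CPM, 1.89-fold (1.40 to 2.57) for pilocarpine over saline. Ndufa2, which has a thioredoxin-like fold, stood at 7.4, 7.1 and 11.3 CPM, 1.60-fold (1.20 to 2.14). For these 2 the pilocarpine library alone was high. Ndufb9 had 21.1, 23.7 and 30.4 CPM, and Ndufs4, the most abundant member, did not differ between libraries beyond counting error, at 146, 148 and 146 CPM. Ndufa13 stood at 12.7, 9.1 and 13.3 CPM, but its whole span lies inside Yjefn3 on the same strand, and its counts are uncertain for that reason.

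**Figure D4:**
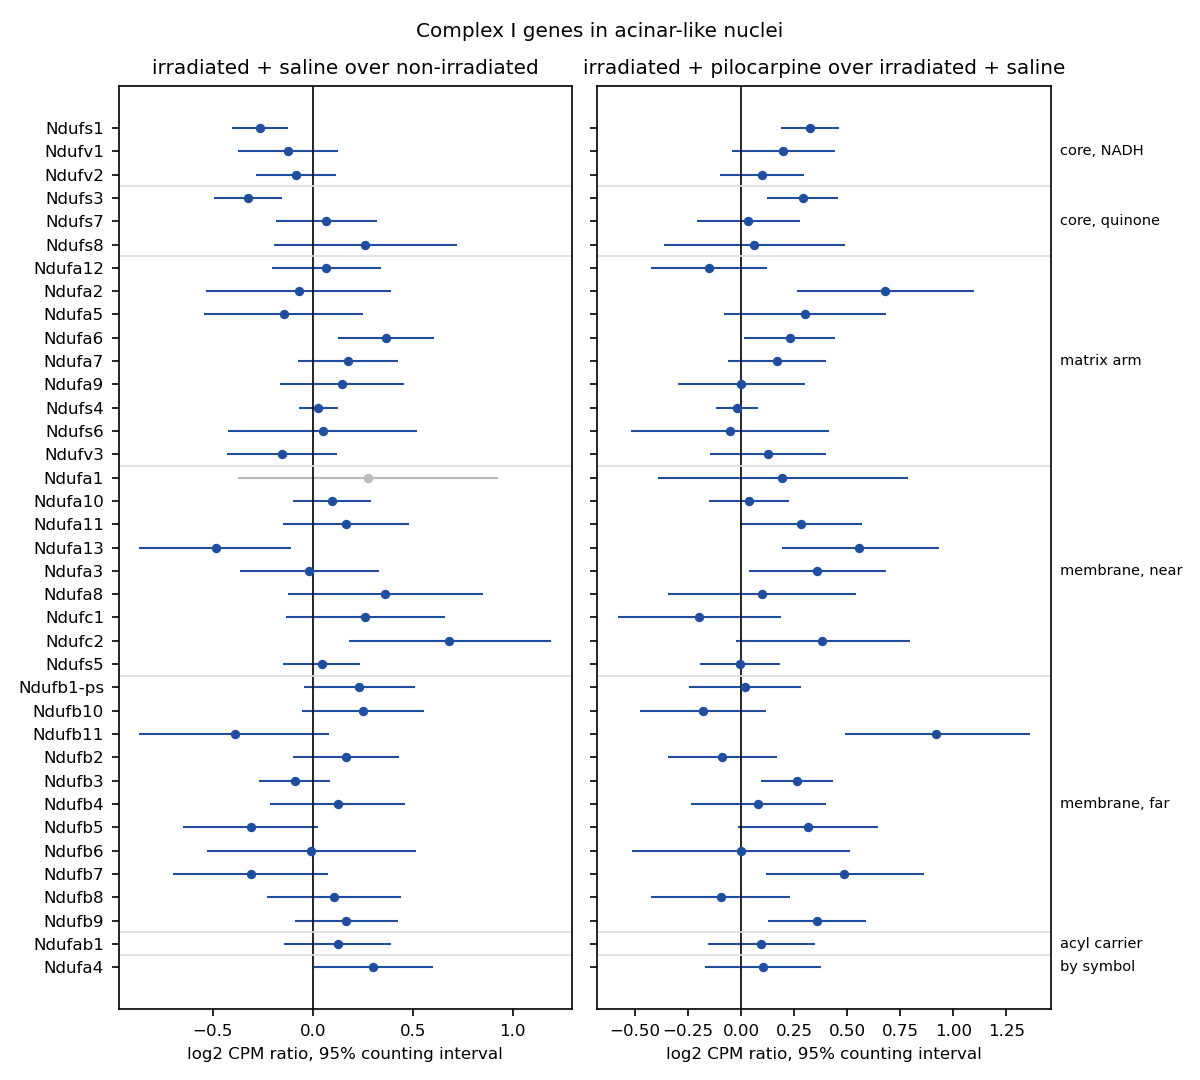
Log2 CPM ratio of complex I genes in acinar-like nuclei (horizontal axes) with exact 95% counting intervals, for saline over non-irradiated (left) and pilocarpine over saline (right), ordered by role; grey marks fewer than 100 UMIs. Ndufs1 and Ndufs3 lie left of 0 in the left panel and right of 0 in the right panel, and Ndufb11 lies farthest right there. The panels share the saline library.

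The promoter of Ndufa6 (GRCm38.p6, chr15:82354242-82354541, minus strand, RefSeq) is shown because its gene stepped up over the 3 libraries and its window held the NRF1 core 2 times. Capitals mark that core, TGCGCA, which reads the same on both strands. NRF1 is a known activator of nuclear respiratory genes.
Ndufa6: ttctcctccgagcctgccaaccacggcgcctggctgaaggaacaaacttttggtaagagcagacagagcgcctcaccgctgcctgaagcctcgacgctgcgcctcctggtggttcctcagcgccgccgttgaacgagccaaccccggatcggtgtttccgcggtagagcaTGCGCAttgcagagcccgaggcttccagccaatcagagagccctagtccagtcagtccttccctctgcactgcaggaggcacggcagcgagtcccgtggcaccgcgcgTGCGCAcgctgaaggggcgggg
The NRF1 core was in 10 of the 33 member promoters (30.3%), where 8.06% of all genes had it. The YY1 core AAGATGG (other strand CCATCTT) was in 7 (21.2%), against 6.48%, and the ESRRA half-site AAGGTCA (other strand TGACCTT) in 3 (9.09%), against 4.66%. No overlap between the 4 motifs was allowed for, and a match of letters says nothing of binding in these glands. The genes behind the background shares were not matched to the members in base composition. Its part in the shares was not tested.

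Gene length went with these ratios. Whether intronic reads were counted is not stated, and longer genes had higher CPM: over the 39 members the Spearman correlation between genomic span (median 8.38 kb, longest 100.5 kb for Ndufs4) and mean acinar-like CPM was 0.50, a description across genes that share libraries. Per kb of span Ndufs5, Ndufa6 and Ndufb10 stood highest in acinar-like nuclei, at 7.18, 6.78 and 6.53 CPM per kb. A split at 10 kb, chosen after the ratios were seen, put 25 members in the short set and 14 in the long one. Saline over non-irradiated was 1.05-fold (1.01 to 1.10) for the short and 0.963-fold (0.929 to 0.999) for the long set. Pilocarpine over saline was 1.14-fold (1.09 to 1.18) and 1.07-fold (1.03 to 1.11), and pilocarpine over non-irradiated 1.19-fold (1.14 to 1.24) and 1.03-fold (0.994 to 1.07). Across members the Spearman correlation of span with the log2 ratio was -0.17, -0.25 and -0.46 in these 3 comparisons, and across all genes counted it was -0.15, -0.27 and -0.34. The core genes Ndufs1, Ndufs3 and Ndufv2 are in the long set, Ndufs3 only just, with a span of 10.2 kb. The part of span in the core pattern was not tested.

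In granular or striated duct-like nuclei the order of the libraries depended on how the class was drawn. The sum was 1455, 1344 and 1521 CPM, from 1312, 4147 and 774 member UMIs. Saline over non-irradiated was 0.924 (0.868 to 0.984) and pilocarpine over saline 1.13 (1.05 to 1.22), while pilocarpine over non-irradiated was 1.05 (0.955 to 1.14). With each library clustered alone, where the class held 689, 420 and 560 nuclei, the second ratio was 0.953. At a finer clustering the class held only 125, 758 and 48 nuclei, against 658, 1642 and 353. There the first ratio was 1.06 and the second 0.994, so both directions turned. The summed ribosomal protein genes beside them stood at 0.911, 1.55 and 1.41-fold, and the mitochondrial share of UMIs in this class was 0.0446%, 0.0500% and 0.107%, with the pilocarpine library high in both. Mucl2, an abundant acinar transcript, stood at 34192, 17654 and 60583 CPM in duct-like nuclei and at 47896 CPM in acinar-like nuclei of the non-irradiated library, and Egf, a granular duct product, at 5032, 7264 and 3890 CPM in duct-like nuclei against 352 CPM in those acinar-like nuclei. Their part in the ratios was not tested.

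Few duct-like members had enough UMIs. For saline over non-irradiated, 0 of 20 passed 1.5-fold either way, where 4.39% of all genes were above and 5.0% below, with a median log2 ratio of -0.14 for the members and -0.04 for all genes. For pilocarpine over saline, 3 of 17 were above, Ndufb9 and Ndufb4 among them, and 0 below, where 4.47% and 5.86% of all genes were, with medians of 0.11 and -0.05. For pilocarpine over non-irradiated, 0 of 5 passed, where 2.03% of all genes were above and 5.04% below. Ndufb9 had 28.8, 26.3 and 43.2 CPM and Ndufb4 had 23.3, 27.9 and 43.2 CPM in the 3 libraries. Ndufs1 was lower in the saline than in the non-irradiated library here too, 124 against 159 CPM, a ratio of 0.783 (0.644 to 0.955). So was Ndufab1, the acyl carrier, with 37.0 against 54.4 CPM, a ratio of 0.680 (0.482 to 0.971), whose log2 ratio turned to 0.12 at the finer clustering and to 0.06 after thinning to 800 UMIs a nucleus.

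In ionocyte-like nuclei the 3 ratios were 1.05, 1.05 and 1.10, the last with an interval of 1.00 to 1.21. Elsewhere the summed level was within counting error between libraries in endothelial-like and fibroblast-like nuclei, where the 3 ratios ran from 0.977 to 1.01 and from 1.01 to 1.09. In myoepithelial-like nuclei, contractile cells around the acini, it was 1.14-fold higher in the saline than in the non-irradiated library (1.02 to 1.27) and 1.19-fold higher in the pilocarpine library (1.08 to 1.30), beside 1.19 and 1.28-fold for ribosomal protein genes.

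The rest of the pathway was read with the same lists in acinar-like nuclei. The 7 mitochondrially encoded complex I genes, whose RNA a nucleus should lack, gave 55.1, 64.9 and 76.3 CPM, 1.18-fold for saline over non-irradiated and again 1.18-fold for pilocarpine over saline. No gene of complexes II, III and IV passed 1.5-fold in either of these 2 comparisons, and ATP synthase had none either. Of all genes, 4.11% were above and 3.77% below for saline over non-irradiated. For pilocarpine over saline 1.15% and 0.895% were. With so few genes listed, having none past the fold is near those shares. For pilocarpine over saline their summed ratios were 1.11, 1.10, 1.12 and 1.16, close to that of complex I. For saline over non-irradiated they were 0.928, 1.08, 1.08 and 1.02. Of the 17 assembly factors 15 had enough UMIs, and their sum was 371, 385 and 438 CPM. Ndufaf4, which acts in early assembly, had 53.6, 76.7 and 91.4 CPM, a ratio of 1.71 (1.55 to 1.88) for pilocarpine over non-irradiated, while Ndufaf6 had 19.8, 13.3 and 15.8 CPM. Of 9 regulators of respiratory genes only Esrrg passed 1.5-fold in acinar-like nuclei for saline over non-irradiated. Esrrg is an orphan nuclear receptor active on mitochondrial genes. It was lower, at 4335, 2541 and 2453 CPM, where 3.77% of all genes were below. In duct-like nuclei it stood at 18136, 22510 and 16117 CPM. Ppargc1a, the PGC-1alpha coactivator, stood at 161, 131 and 146 CPM in acinar-like and 487, 337 and 588 CPM in duct-like nuclei, lowest in the saline library in both classes.

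**Figure D5:**
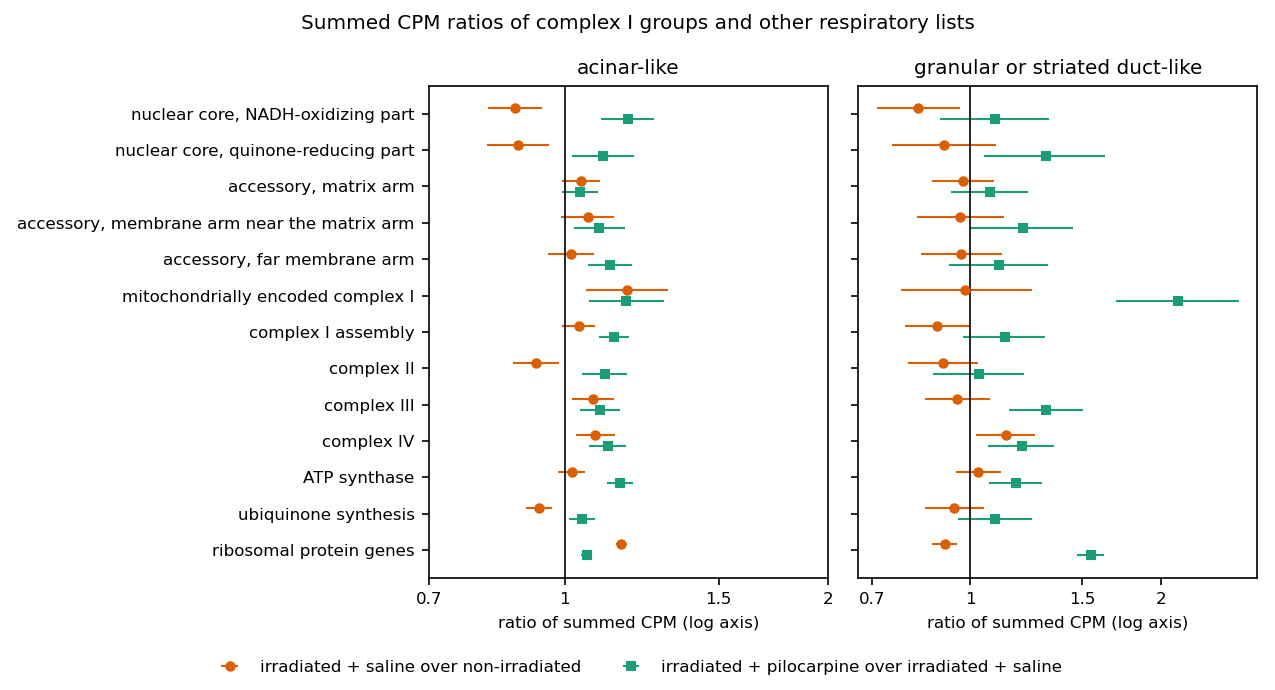
Ratio of summed CPM (horizontal log axes) for groups of complex I genes and other respiratory lists, in acinar-like (left) and granular or striated duct-like nuclei (right), for saline over non-irradiated (circles) and pilocarpine over saline (squares), with exact 95% counting intervals. In the left panel both nuclear core groups lie below 1 for saline, at 0.878 and 0.884, and above 1 for pilocarpine, at 1.18 and 1.11.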

How the data were processed

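Raw UMI counts per gene and barcode of 3 libraries were deposited by the authors. They were made with Cell Ranger 7.0.1 on GRCm38, per the submitters' processing notes. Annotation, strand setting and whether introns were counted are not given in the sources used here. Barcodes with at least 500 genes and at most 5% mt- UMIs were kept, with 25566617 to 33358056 UMIs a library. Nuclei were clustered with scanpy 1.11.5 and leidenalg 0.10.2 (3000 variable genes, 30 components, 15 neighbours, resolution 1), without the members, listed respiratory, mt- and ribosomal genes, and without integration. A cluster was named where the median marker reached 0.65 of the highest cluster's level, at least 3 markers did, and no other class led its 10 top genes. The doublet caller marked 0 barcodes in each library and so did not work; doublets stay in. UMIs were summed by class and library and given as CPM with exact Poisson intervals; ratios have exact binomial intervals (95%, counting error only). A member counted as above or below at 1.5-fold of CPM + 1 where the 2 libraries compared held 100 or more of its UMIs. TMM (edgeR 4.0.16) and DESeq2 1.42.0 size factors served as alternative scalings only. The scripts were tested on simulated data. Members, lists and markers were chosen with earlier results of these data known. Some results named by the rule are not reported here. Named were the core subunits, Ndufa4, Ndufa4l2, in each comparison the 3 members farthest above and below by the interval bound nearest 1 (at least 100 UMIs, acinar-like and duct-like nuclei), and the 6 varying most over classes; Ndufb6, Ndufb1-ps, Ndufa5 and the non-members were named after their values were seen. The comparison of classes by member, the within-cluster ratios, the sums without cluster 3 and the 10 kb split were added after seeing the data. Gene positions are from GENCODE M21 and promoters from RefSeq.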

Additional observations from a re-analysis of the deposited data

Results flagged for a closer look

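In 3 cases the ratio lay wholly above 1, by its counting interval, in one class of nuclei and wholly below 1 in another under the same comparison. The difference between the classes was not tested in any of them, and each class has 1 library a group. For saline over non-irradiated, the summed complex I level was 0.924 (0.868 to 0.984) in granular or striated duct-like and 1.14 (1.02 to 1.27) in myoepithelial-like nuclei. The duct-like direction turned at a finer clustering. For the same comparison Ndufa13, whose span lies inside Yjefn3, was 0.715 (0.549 to 0.928) in acinar-like nuclei and 2.45 (1.17 to 5.90) in duct-like nuclei, the latter from 67 and 8 UMIs. For pilocarpine over non-irradiated, Ndufb1-ps was 0.236 (0.0605 to 0.670) in duct-like nuclei, from 4 and 30 UMIs, and 2.18 (1.02 to 5.32) in myoepithelial-like nuclei, from 50 and 8 UMIs. All pairs of 6 classes and 39 genes were looked through, with no adjustment for their number.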

How the results depend on the processing

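With 1 library a group no spread between animals can be given, leaving one out is not possible, and depth left 5 to 20 duct-like members to compare between libraries and 1 to 7 in the smaller classes. No paired analysis was possible because no group holds more than 1 library. Of the values for comparisons as a whole, 193 stayed within the spread or the interval of the reported value, 75 moved and 3 turned direction; of those for single named members, 1685 stayed, 48 moved and 2 turned. The cause was not tested unless the setting itself changes what is counted. Counts of members past the fold are given below without the number of members compared or the share of all genes under the same setting. A smaller fold or a lower UMI minimum can let more of any genes pass. These counts therefore show how the calls depend on the setting and do not set the members apart from other genes.

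In acinar-like nuclei, saline over non-irradiated, the summed ratio of 0.999 was 1.04 with equal weight for each cluster. The count of 1 member past 1.5-fold, Ndufc2, was 0 with at least 200 or 1000 genes, at most 1% mt- UMIs, high doublet scores removed, resolution 0.5 or 2, thinning, a pseudocount of 10 CPM, at least 300 UMIs or without cluster 3, 3 with free RNA subtracted, and 4 with equal weights or at the smaller fold. For pilocarpine over saline the ratio of 1.10 was 1.06 with TMM or DESeq2 size factors. The count of 2 was 1 with at least 1000 genes, high doublet scores removed, resolution 0.5, equal weights, TMM or DESeq2, 0 with thinning, the larger pseudocount or 300 UMIs, and 7 at the smaller fold. For pilocarpine over non-irradiated the ratio was 1.13 with thinning or free RNA subtracted. The count of 1 was 3 with at least 200 or 1000 genes, the mean over nuclei or free RNA subtracted, 2 without the 50 most abundant genes, 5 with equal weights, 0 with the larger pseudocount or 300 UMIs, and 9 at the smaller fold.

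In duct-like nuclei, saline over non-irradiated turned from 0.924 to 1.06 at resolution 2 and was 0.793 with free RNA subtracted. The count of 0 was 1 with at least 200 genes or the mean over nuclei, 4 with free RNA subtracted, 2 with at least 30 or 1 UMI, and 6 at the smaller fold. Pilocarpine over saline turned from 1.13 to 0.994 at resolution 2 and 0.953 with each library clustered alone, and was 1.30 with free RNA subtracted. The count of 3 was 0 with at least 1000 genes, resolution 2, each library alone, thinning or 300 UMIs, 6 with free RNA subtracted or at the smaller fold, 1 with the larger pseudocount, 11 with 30 UMIs and 14 with 1 UMI. Pilocarpine over non-irradiated was 0.847 with each library alone. Its count of 0 was 1 with each library alone or thinning, 8 with 30 UMIs and 15 with 1 UMI. The log2 ratio of Ndufab1, saline over non-irradiated, turned to 0.118 at resolution 2 and 0.0567 with thinning.

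Without the 50 most abundant genes in the total, the mean summed level was 1215 CPM in acinar-like, 1931 in duct-like, 1196 in endothelial-like, 1155 in fibroblast-like, 1477 in ionocyte-like and 1117 in myoepithelial-like nuclei. The endothelial-like level was 963 with at least 200 genes, 921 with high doublet scores removed and 928 without Ndufa4 and Ndufa4l2, and the ionocyte-like level was 1278 with thinning. Duct-like over acinar-like, 1.58 as a mean, was 1.40 at resolution 2, 1.43 with each library alone and 1.92 with free RNA subtracted. Ionocyte-like over acinar-like, 1.27, was 1.36 at resolution 2 and 1.37 with thinning. Equal weights were not possible for duct-like nuclei, which form 1 cluster.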

Other observations

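Pericyte or smooth muscle-like nuclei were too few for a comparison, with 24, 43 and 26 in the 3 libraries. Ndufa4l2 had 0, 9 and 1 UMIs in them, or 76.2 CPM (34.8 to 144.6) in the saline library, above the 11.2 CPM of fibroblast-like nuclei there. Cluster 9, unnamed, with a median of 10159 UMIs a nucleus, had a summed complex I level of 1016, 1112 and 1042 CPM. Cluster 13, also unnamed, had 885, 1123 and 1026 CPM. Cluster 16, which carried acinar markers and cycling genes, had 829, 890 and 1004 CPM. Cluster 12, led by Smgc, had 913 CPM in the non-irradiated library from 636 nuclei, and 885 and 1017 CPM from 18 and 34 nuclei in the other 2. In cluster 22 the 13 nuclei of the non-irradiated library had 2383 CPM (1998 to 2821), with 2.42% ribosomal protein and 0.775% mitochondrial UMIs and 246535 CPM of Mucl2, against 1069 and 1018 CPM in the saline and pilocarpine libraries.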
